A study of Mus musculus with 6 samples.

Results

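Zinc transporters and metallothioneins were described in epithelial cells from the intestine of 12-day-old mice. The 10 genes were taken by symbol from a table of 18159 genes, and all 10 were found in it. They are the importers Slc39a4, Slc39a5, Slc39a8 and Slc39a14, the exporters Slc30a1, Slc30a4 and Slc30a10, the metallothioneins Mt1 and Mt2, and the zinc sensor Mtf1. They were chosen with the difference between the groups already known, Slc39a4 in particular for its 2.7-fold lower level. Their differences are therefore given as a description, without a test. The series holds 3 libraries from wild-type mice and 3 whose titles say Git2-knockout, while the genotype field of those same samples reads Git2 knockdown. The titles name isolated epithelial cells and the design text calls all samples enteroids, which are epithelial organoids. How the Git2 allele was made, and whether the libraries of a group came from separate animals, is not stated by the labels, so each p-value reflects the spread between libraries alone, which may be technical.

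Zinc enters cells through ZIP proteins (Slc39 genes), which move it into the cytosol, and leaves the cytosol through ZnT proteins (Slc30 genes), which export it from the cell or load it into vesicles. In the small intestine ZIP4 takes up dietary zinc at the apical membrane, ZnT1 passes it on at the basolateral membrane, and metallothioneins, small cysteine-rich proteins, bind the metal in the cytosol. MTF1 is a zinc finger transcription factor that senses free zinc and turns on metallothionein and ZnT1 genes through metal response elements in their promoters. In mouse intestine dietary zinc is known to lower ZIP4 and to raise metallothionein and ZnT1 transcripts.

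Library totals ran from 16284414 to 19106581 estimated reads. Git2, the targeted gene, was at 22.2 to 23.7 CPM (counts per 1e6 reads, scaled by TMM factors) in wild-type and at 15.5 to 17.4 CPM in the other libraries, so directions below are those of the libraries labelled Git2-knockout. All 8 epithelial markers were detected, with a summed level of 8884 to 9273 CPM in wild-type and 8071 to 8222 CPM in the labelled libraries, and 6 of the 8 fell. Of 9 enterocyte markers 8 fell, with sums of 29340 to 30530 and 19140 to 20110 CPM, of which the apolipoprotein genes Apoa4 (means 15350 and 10170 CPM) and Apoa1 (8057 and 4659 CPM) held most. Paneth markers were at 473.6 to 481 and 379.5 to 427 CPM (6 of 8 fell and 1 rose). With the trend on transcript length removed, 3 Paneth markers rose and 0 fell. Goblet markers were at 2905 to 2953 and 2356 to 2555 CPM (6 of 7 fell). All 8 tested of 9 fibroblast markers rose, from sums of 44.1 to 50.7 CPM to 131.8 to 138.1 CPM, and all 7 endothelial markers rose, from 18.6 to 19.9 CPM to 43.0 to 47.7 CPM. Macrophage markers were at 228.5 to 232.1 and 130.2 to 131.3 CPM (2 of 7 rose and 1 fell). In the macrophage sum Csf1r went from a mean of 196.6 to 90.7 CPM, while the other 6 summed to 32.9 to 34.8 and 39.0 to 41.8 CPM. B cell markers were at 13.3 to 14.6 and 5.01 to 6.13 CPM (all 4 tested of 5 fell). Of 7 acinar markers 3 were tested and fell (12.8 to 13.8 against 8.07 to 8.92 CPM), and 3, Cpa1, Cela2a and Pnlip, were not in the table. Of 7 erythroid markers 4 of 5 tested rose (22.8 to 24.5 against 74.0 to 84.4 CPM). Of 7 genes listed as hepatocyte markers 5 were tested, 2 rose and 1 fell (2524 to 2553 against 2568 to 2798 CPM). Cps1 (means 2401 and 2592 CPM) held most of that sum, and Alb had at most 3 estimated reads in any library. No listed marker found in the table was at 0 in all libraries. These calls are by edgeR's quasi-likelihood test at a Benjamini-Hochberg adjusted p under 0.05. By the same test 57.0% of all tested genes were called, 29.6% higher and 27.4% lower. The part of these cell types in the values below was not tested, and in such bulk samples fewer cells of a type and less RNA per cell cannot be told apart.

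All 10 genes passed the expression filter. In edgeR's fit over 13558 genes, 6 of the 10 were called higher and 4 lower in the libraries labelled Git2-knockout, where 57.0% of all tested genes were called, 29.6% higher and 27.4% lower. Because the genes were chosen on this contrast, nothing is read from that count. The split over all genes, 4013 higher and 3712 lower, was 5749 and 1890 with limma on log2(TPM + 1), and 2254 and 4060 with the length and GC trends removed. Relative to all reads, Slc39a4, Slc39a5, Slc30a10 and Mtf1 were lower. Mt1, Mt2, Slc39a8, Slc39a14, Slc30a1 and Slc30a4 were higher. In CPM the groups did not overlap for any of the 10, as for 62.9% of tested genes.

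**Figure D1:**
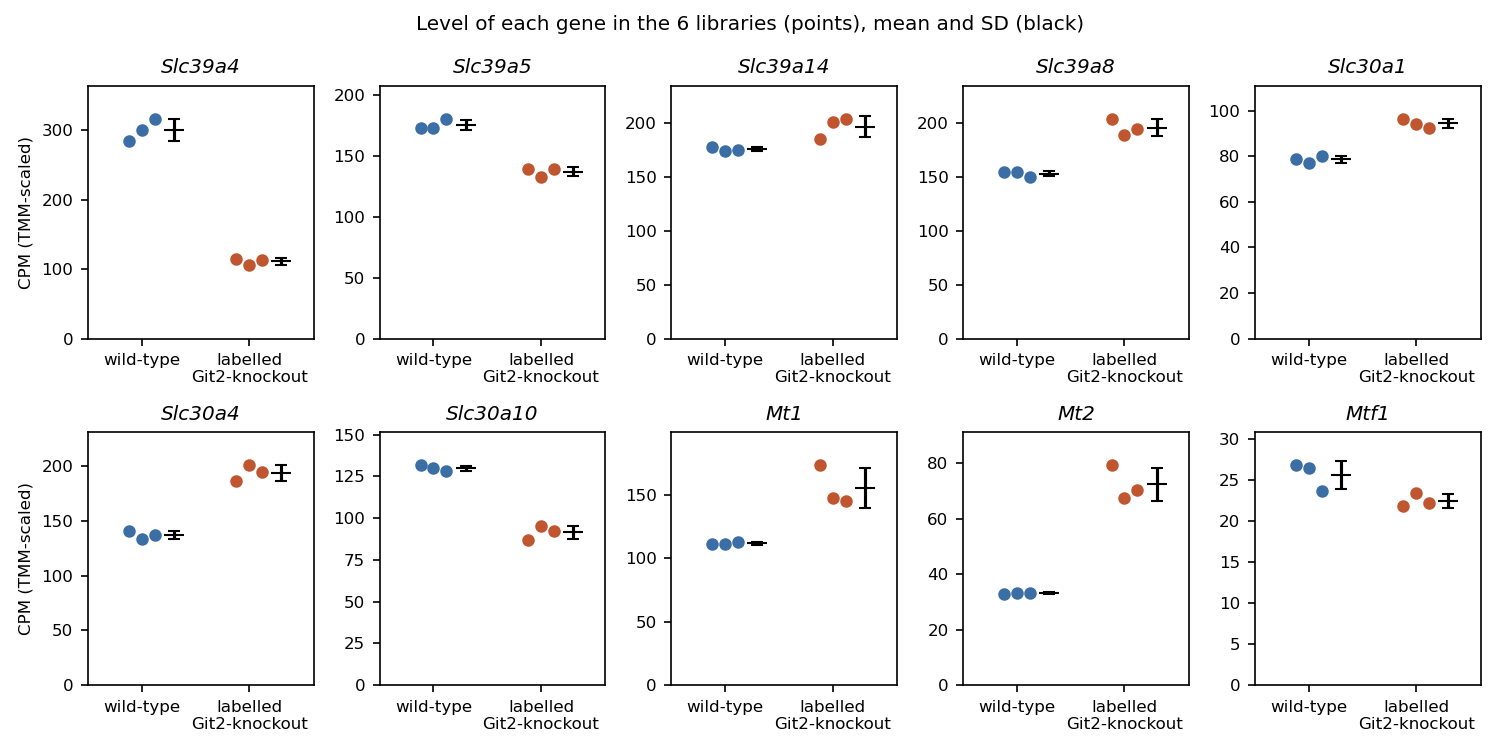
Level of each of the 10 genes in CPM (vertical axes, each from 0) in the 3 wild-type libraries (blue) and the 3 libraries labelled Git2-knockout (orange), with the mean and SD in black. Slc39a4 lies at 285.4 to 316.6 CPM in wild-type and at 105.6 to 115.3 CPM in the others, and Mt2 at 32.7 to 33.3 and 67.5 to 79.2 CPM.

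Slc39a4 encodes ZIP4, the apical importer whose human gene is mutated in acrodermatitis enteropathica, an inherited zinc deficiency. It was measured at 285.4, 301.3 and 316.6 CPM in wild-type and at 115.3, 105.6 and 113.8 CPM in the libraries labelled Git2-knockout. Every labelled library lay below every wild-type library, by more than the whole spread within either group. The means were 301.1 ± 15.6 and 111.5 ± 5.22 CPM (SD, n = 3 each), a log2 fold change of -1.43 (SE 0.05). At least 2-fold lower levels were seen in 1.03% of tested genes.

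Slc39a4 was also set against 2 lists of markers, which fell by different amounts themselves. Per 100 reads of the 8 epithelial markers, wild-type libraries held 3.21, 3.32 and 3.41 reads of Slc39a4 and the labelled libraries 1.40, 1.31 and 1.39. The log2 fold change of that ratio was -1.28. Per 100 reads of the 9 enterocyte markers the values were 0.973, 1.006 and 1.04 in wild-type against 0.573, 0.552 and 0.566. The log2 fold change of this ratio was -0.83, so that the difference was smaller relative to the summed reads of these markers. The groups still did not overlap. Apoa4 and Apoa1 held most of that sum, so each ratio to the enterocyte markers chiefly reflects these 2 genes. Because that sum fell, the ratio shifts the log2 fold change of every gene upward by about the same amount. This holds also for the genes below whose direction turns in it. The fold change of Slc39a4 itself, with no ratio taken, was -1.27 with the trends of read counts on transcript length and GC content both removed, and between -1.48 and -1.40 without any one library.

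Slc39a5 encodes ZIP5, a basolateral importer of enterocytes that is also strongly expressed in pancreatic acinar cells. Its wild-type levels were 173.0, 173.0 and 180.5 CPM, against 139.2, 133.1 and 139.3 CPM in the labelled libraries. The labelled libraries were all lower and close to each other, with a log2 fold change of -0.35 (SE 0.04). The difference was -0.12 with the length and GC trends removed and -0.20 as a ratio to the epithelial markers, and its direction turned, to 0.24, as a ratio to the enterocyte markers. ZIP4 and ZIP5 transcripts thus stood in another proportion: per transcript length (TPM), Slc39a4 was at 1.46 ± 0.0506 times the level of Slc39a5 in wild-type and at 0.685 ± 0.0213 times in the labelled libraries (SD, n = 3 each).

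Slc39a8 and Slc39a14 encode ZIP8 and ZIP14, which carry manganese and iron as well as zinc. Slc39a8 was at 154.8, 154.7 and 150.4 CPM in wild-type and at 204.0, 188.8 and 195.1 CPM in the labelled libraries, a log2 fold change of 0.35 (SE 0.04). It was higher in all 3 labelled libraries, and the difference was 0.11 with the length and GC trends removed and 0.95 as a ratio to the enterocyte markers. Slc39a14 was at 177.6, 174.0 and 174.8 CPM and at 184.8, 200.8 and 203.4 CPM, a log2 fold change of 0.16 (SE 0.04). Labelled replicate 1 lay close to the wild-type libraries. The direction of Slc39a14 was not kept under every setting, with -0.04 once the length trend was removed and 0.76 as a ratio to the enterocyte markers.

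Slc30a1 encodes ZnT1, the exporter at the basolateral membrane and a target of MTF1. It was at 78.9, 77.2 and 80.3 CPM in wild-type and at 96.5, 94.4 and 92.7 CPM in the labelled libraries. All labelled libraries were higher, with a log2 fold change of 0.26 (SE 0.04). It was 0.07 with the length trend removed and 0.42 and 0.86 as a ratio to the epithelial and the enterocyte markers.

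Slc30a4 encodes ZnT4, which loads zinc into vesicles and is known for its part in milk zinc. Its levels were 140.8, 133.4 and 136.7 CPM in wild-type and 186.1, 200.7 and 195.0 CPM in the labelled libraries, a log2 fold change of 0.50 (SE 0.04). The groups were far apart, but the difference was 0.27 with the length trend removed and 0.01 with the length and GC trends removed, and was 1.10 as a ratio to the enterocyte markers. Its transcripts have the lowest GC content of the 10 genes, at 42.4%.

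Slc30a10 encodes ZnT10, known chiefly as a manganese exporter. It was at 131.6, 129.8 and 128.3 CPM in wild-type and at 87.1, 95.3 and 92.1 CPM in the labelled libraries. It was the only one of the 3 exporters that was lower, with a log2 fold change of -0.51 (SE 0.05). The difference ranged from -0.83 with the length and GC trends removed to -0.34 on the log2(TPM + 1) scale. As a ratio to the summed enterocyte markers, mostly reads of Apoa4 and Apoa1, it turned to 0.09, with overlapping groups. Slc30a10 was thus lower relative to all reads and not relative to that sum. Among the single enterocyte markers, its log2 fold change lay below those of Alpi (-0.23), Anpep (-0.49), Slc5a1 (-0.36) and Slc15a1 (0.05). It lay above those of Fabp1 (-2.16), Fabp2 (-0.66), Apoa1 (-0.79), Apoa4 (-0.59) and Lct (-0.59).

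Mt1 and Mt2 lie next to each other on chromosome 8 and encode the metallothioneins found in most tissues. Mt2 was at 32.7, 33.3 and 33.2 CPM in wild-type and at 79.2, 67.5 and 70.2 CPM in the labelled libraries. All labelled libraries lay far above the wild-type ones, and labelled replicate 1 was the highest. The means were 33.1 ± 0.329 and 72.3 ± 6.09 CPM (SD, n = 3 each), a log2 fold change of 1.13 (SE 0.06). Levels at least 2-fold higher were seen in 3.82% of tested genes.

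Mt1 was at 111.5, 110.9 and 113.2 CPM in wild-type and at 173.2, 147.3 and 145.4 CPM in the labelled libraries. It was higher in each of them, again most in replicate 1, with a log2 fold change of 0.47 (SE 0.06). Without that library the log2 fold change was 0.36 for Mt1 and 1.03 for Mt2. The 2 metallothionein transcripts are the shortest of the 10, at 0.495 and 0.507 kb as implied by the deposited counts and FPKM. Their differences were larger with the length trend removed, at 0.87 for Mt1 and 1.52 for Mt2, and with the length and GC trends removed, at 0.98 and 1.59. As a ratio to the enterocyte markers they were 1.07 and 1.72, but that ratio shifts every gene upward by about the same amount.

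The 2 metallothioneins differed in size of change. The ratio of Mt2 to Mt1 in TPM was 0.287, 0.293 and 0.287 for wild-type replicates 1 to 3, against 0.445, 0.447 and 0.471 for the labelled ones, and the groups did not overlap. Their summed level was 588.9 ± 2.50 TPM in wild-type and 1032 ± 71.7 TPM in the labelled libraries (SD, n = 3 each). Mt1 and Mt2 shared no stretch of 50 bases with each other or with another gene in GENCODE transcripts. The brain and skin metallothioneins Mt3 and Mt4 were removed by the expression filter, with at most 9 estimated reads in any library.

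Mtf1 itself had the lowest level of the 10. It was at 26.8, 26.4 and 23.6 CPM in wild-type and at 21.8, 23.4 and 22.2 CPM in the labelled libraries, a log2 fold change of -0.19 (SE 0.07). Wild-type replicate 3 lay within 1 CPM of a labelled library, and in TPM the groups overlapped. The difference was -0.02 on the log2(TPM + 1) scale, -0.03 as a ratio to the epithelial markers and -0.53 with the length and GC trends removed. It was 0.41 as a ratio to the enterocyte markers, the 1 of 17 alternatives in which its sign turned. With values that close to 0, the direction of Mtf1 stays uncertain.

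**Figure D2:**
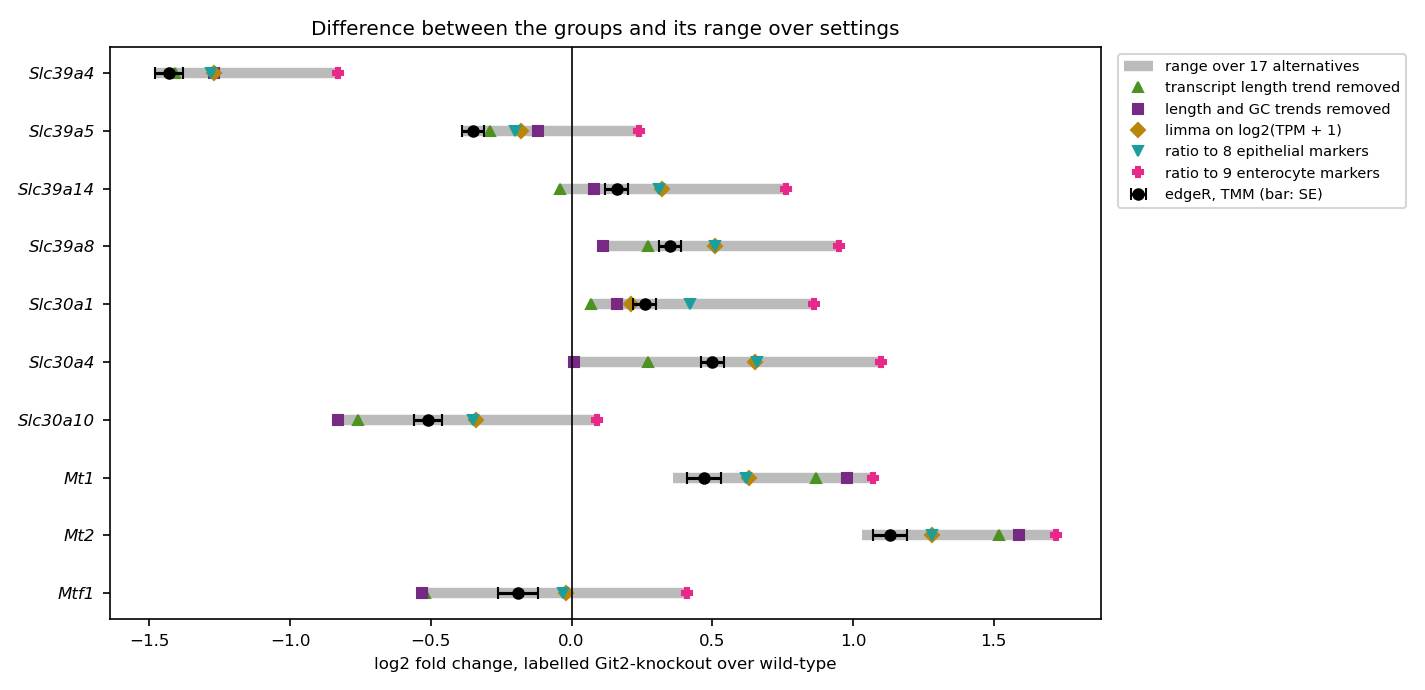
Log2 fold change of each gene (horizontal axis, labelled Git2-knockout over wild-type) by edgeR with its SE (black) and its range over 17 alternatives (grey), with 5 of them marked. Slc39a4 stays between -1.48 and -0.83 and Mt2 between 1.03 and 1.72, while Slc39a5, Slc39a14, Slc30a10 and Mtf1 cross 0 and Slc30a4 reaches 0.01.

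**Figure D3:**
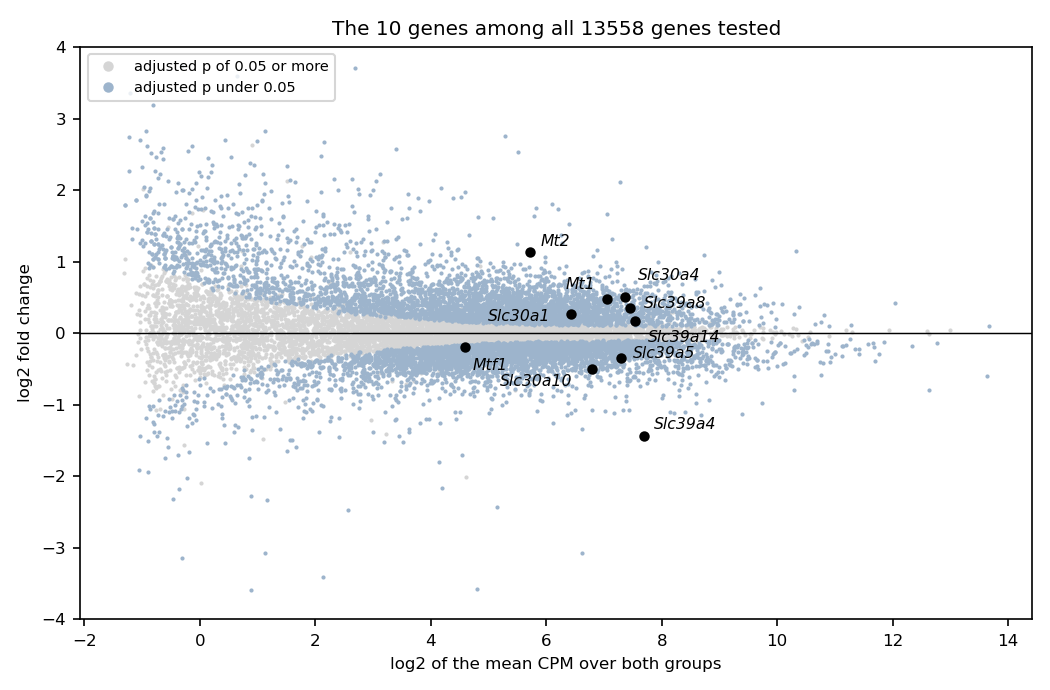
Log2 fold change against the log2 mean CPM for all 13558 genes tested, with the 10 genes in black and calls at an adjusted p under 0.05 in blue. Slc39a4, at -1.43, and Mt2, at 1.13, lie outside the dense band of genes of similar level, and 7 genes fall outside the plotted range of 4.

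Promoter sequences bear on the genes that respond to zinc through MTF1. RefSeq promoter windows (GRCm38.p6) were matched for 8 of the 10 genes, with 10 windows in all, and Slc39a4 and Slc39a14 had no entry. The 250 bases before each start were searched for the core of the metal response element, TGCACNC or TGCGCNC, and on the other strand GNGTGCA or GNGCGCA. At least 1 match was present in 21.4% of all 32851 promoter windows, at least 2 in 5.17% and at least 3 in 1.26%. Of the 8 genes 7 had at least 1 match in any of their windows, a count per gene, while the shares above are per window. Slc39a5 and Slc39a8 have 2 windows each, of which 1 held no match. Mt2 and Slc30a10 had 3, Slc30a4 had 2, Mt1, Slc30a1, Slc39a5 and Slc39a8 had 1, and Mtf1 had none in this window. The match of Slc39a8 lies before a start 8775 bases after the first base of the gene, and its other window, before a start 8397 bases after it, had none.

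The windows of Mt2 (chr8:94172368-94172617, plus strand) and Slc30a10 (chr1:185454598-185454847, plus strand) are shown because they hold the same number of matches while Mt2 was higher and Slc30a10 lower. Capitals mark the matches, and in Slc30a10 the first run of capitals holds 2 overlapping matches on opposite strands, which were counted separately. A link between the matches and the direction of either gene was not tested.
Mt2: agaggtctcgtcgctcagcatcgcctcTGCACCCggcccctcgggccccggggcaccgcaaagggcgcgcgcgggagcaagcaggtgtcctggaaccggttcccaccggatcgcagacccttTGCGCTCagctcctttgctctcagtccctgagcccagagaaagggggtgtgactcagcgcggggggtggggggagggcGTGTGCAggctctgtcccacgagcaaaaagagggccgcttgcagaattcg
Slc30a10: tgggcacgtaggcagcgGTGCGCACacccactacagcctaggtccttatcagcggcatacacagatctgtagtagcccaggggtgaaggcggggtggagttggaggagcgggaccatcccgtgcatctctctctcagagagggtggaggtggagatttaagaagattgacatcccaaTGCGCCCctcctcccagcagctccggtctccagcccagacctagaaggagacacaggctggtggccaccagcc

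The single matches of Mt1 (chr8:94179056-94179082, plus strand) and Slc30a1 (chr1:191906728-191906754, plus strand) are given with 10 bases on either side, since both genes are known targets of MTF1. The start used for Mt1 lies 206 bases after the first base of the gene in the same annotation. For Slc30a1 that distance is 84 bases. Both matches therefore lie within the annotated gene and not before its first base. For Mt1 the bases before the first base of the gene are mostly outside the searched window. For Slc30a1 the 166 bases of the window before the first base of the gene held 0 matches.
Mt1: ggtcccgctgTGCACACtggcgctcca
Slc30a1: cgggggttccGAGTGCAaagcaaagtt

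**Figure D4:**
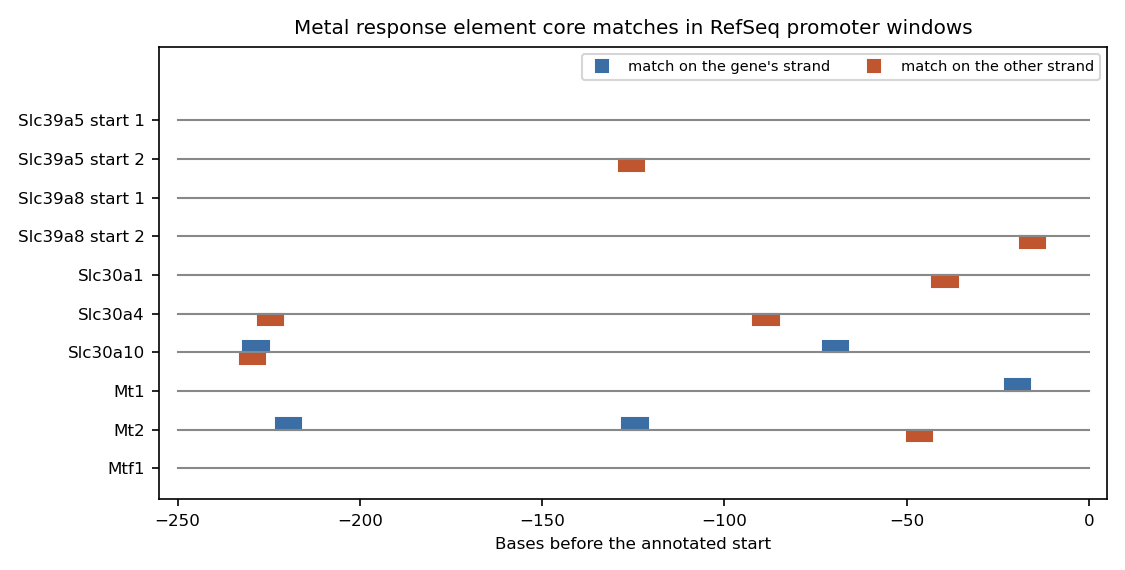
Matches to the metal response element core (boxes) in the 250 bases before each annotated start (horizontal axis, bases), above the line for the strand of the gene and below it for the other strand. Mt2 and Slc30a10 hold 3 matches each, Slc30a4 holds 2, and the Mtf1 window holds none.

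Levels of different genes were compared per transcript length, in TPM. In wild-type the order was Mt1 (456.8 ± 3.16 TPM), Slc39a4 (277.0 ± 11.9), Slc39a5 (190.1 ± 3.22), Mt2 (132.1 ± 0.745), Slc39a8 (98.05 ± 2.65), Slc39a14 (73.7 ± 1.40), Slc30a4 (51.5 ± 1.55), Slc30a10 (45.4 ± 0.992), Slc30a1 (36.7 ± 1.09) and Mtf1 (6.84 ± 0.512), as mean ± SD over 3 libraries. No neighbours in that order overlapped. In the labelled libraries Mt1 stayed first at 709.8 ± 53.9 TPM, Mt2 came second at 322.3 ± 18.9 TPM, and Slc39a4 dropped from the second to the fifth place at 114.6 ± 3.71 TPM, below Slc39a5 (167.4 ± 3.26 TPM) and Slc39a8 (140.3 ± 3.37 TPM). There Slc39a14 and Slc30a4 overlapped, and Slc30a1 stood above Slc30a10.

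**Figure D5:**
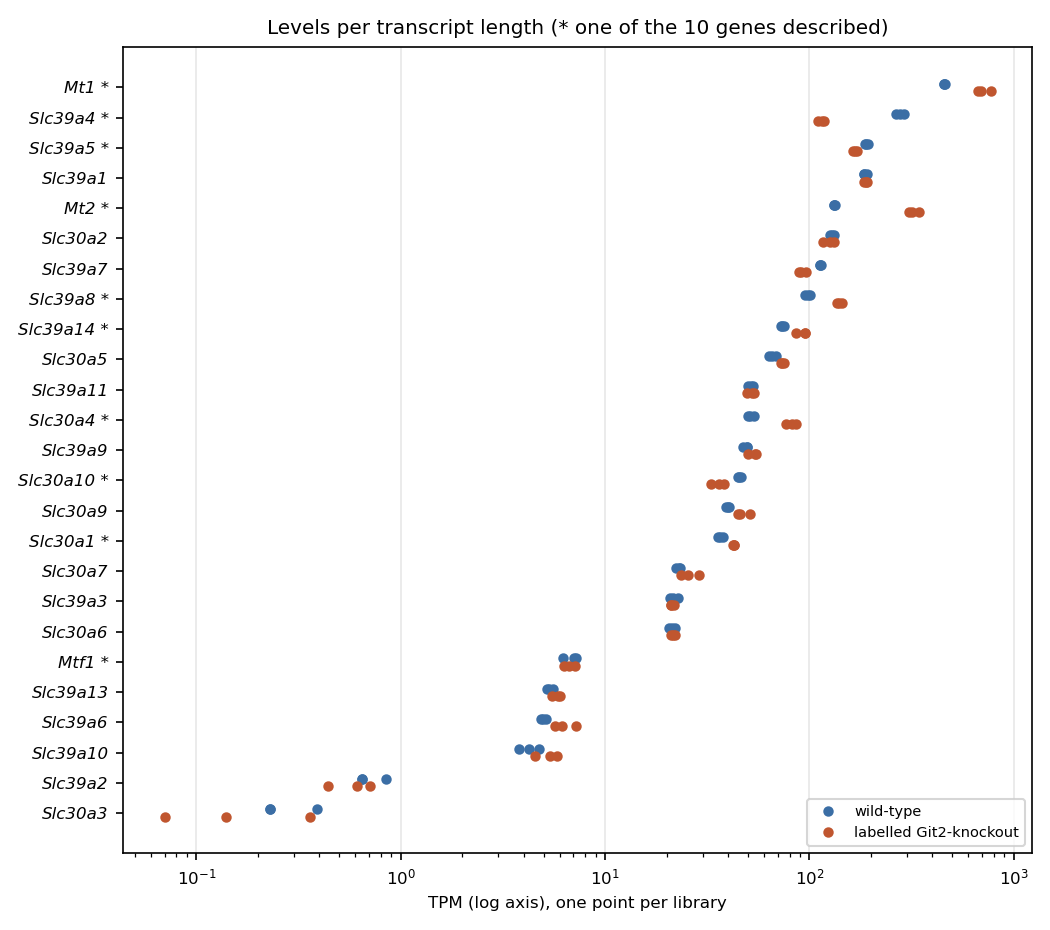
TPM of 25 genes, the zinc transporters, both metallothioneins and Mtf1 (horizontal log axis, 1 point per library) in wild-type (blue) and labelled (orange) libraries, ordered by the wild-type level, with the 10 genes marked by an asterisk. Slc39a4 moves left from 277.0 to 114.6 TPM and Mt2 right from 132.1 to 322.3 TPM, and Slc39a12, which was nearly absent, is not drawn.

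The other ZIP and ZnT genes were tested with all genes. Of 17 listed, Slc30a8 was not in the table and 2 were removed by the filter. Of the 14 tested 1 rose, 5 fell and 8 did not pass, where 29.6% of all tested genes rose and 27.4% fell. The median log2 fold change of the 14 was -0.09 against 0.02 for all genes. Slc39a7, whose product ZIP7 releases zinc from the endoplasmic reticulum, fell most clearly, from 122.5, 124.3 and 125.3 CPM to 90.6, 92.0 and 86.9 CPM. Its log2 fold change was -0.47 (SE 0.04, edgeR, Benjamini-Hochberg adjusted p = 2.504e-07), and it kept its sign and its call under all 15 alternatives, between -0.50 and -0.28.

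The remaining changes in this group were small. Slc30a7, which fills the early secretory pathway with zinc, rose from 50.5 ± 1.76 to 62.4 ± 1.31 CPM (log2 fold change 0.30, edgeR adjusted p = 8.233e-05), a call that was lost with the length trend removed (0.10, adjusted p = 0.06168). Slc30a2, the vesicular ZnT2 of Paneth and other secretory cells, fell from 199.2 ± 5.19 to 173.3 ± 7.83 CPM (-0.20, edgeR adjusted p = 0.001089). Its call was lost on the log2(TPM + 1) scale (-0.04, limma adjusted p = 0.4929). The Paneth markers fell in CPM as given above. With the length trend removed, where Slc30a2 kept its call, 3 Paneth markers rose and 0 fell. With the length and GC trends removed 2 of them rose and 1 fell, and on the log2(TPM + 1) scale 1 rose and 1 fell. Slc39a1, the most abundant of these genes at 187.1 ± 3.62 TPM in wild-type, fell by 0.15 on the log2 scale in CPM (edgeR adjusted p = 0.003696) and was at 188.6 ± 4.28 TPM in the labelled libraries. Slc39a3 (-0.19, edgeR adjusted p = 0.01314) and Slc39a11 (-0.16, edgeR adjusted p = 0.01338) lost their calls without wild-type replicate 3 (adjusted p = 0.083 and 0.0662) and with the length and GC trends removed (0.06459 and 0.5662). On the log2(TPM + 1) scale, where the median of all genes lay at 0.14, 3 of the 14 rose and 1 fell.

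Summed over all 14 ZIP genes, the level was 1077 ± 8.35 TPM in wild-type and 939.3 ± 14.6 TPM in the labelled libraries (SD, n = 3 each), and Slc39a4 made up 25.7% and 12.2% of it on average. The 9 ZnT genes in the table summed to 412.3 ± 2.60 and 454.0 ± 20.3 TPM. On the log2(TPM + 1) scale the median of all genes lay at 0.14, a rise that this scale gives to genes in general. In CPM the 6 ZnT genes outside the chosen ones summed to 433.0 to 442.1 in wild-type and 416.2 to 434.0 in the labelled libraries. Both TPM sums include genes chosen on this contrast, among them Slc39a4, Slc30a1, Slc30a4 and Slc30a10, so both are a description.

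Of 13 listed zinc-dependent enzymes of the enterocyte, most of them at its surface and some, such as Car2, in the cytosol, 9 were tested. Of these 4 rose and 4 fell, where 29.6% of all tested genes rose and 27.4% fell, with a median log2 fold change of -0.05, and between 3 and 1 rose when any 1 library was left out, the latter without labelled replicate 3. Aminopeptidase N (Anpep) fell from 647.6 ± 1.55 to 460.0 ± 10.6 CPM (-0.49, edgeR adjusted p = 1.932e-08), the meprin subunit Mep1b from 497.8 ± 6.56 to 388.1 ± 12.1 CPM (-0.36, edgeR adjusted p = 9.745e-07) and intestinal alkaline phosphatase (Alpi) from 2943 ± 35.9 to 2510 ± 81.1 CPM (-0.23, edgeR adjusted p = 3.947e-05), the last a call that was lost on the log2(TPM + 1) scale (-0.07, limma adjusted p = 0.05717). Anpep and Alpi are also among the 9 enterocyte markers above, of which 8 fell, so their falls are the same ones given there. Mme, neprilysin, rose from 0.748 ± 0.104 to 3.53 ± 0.643 CPM (2.23, edgeR adjusted p = 5.3e-07), at 12 to 16 and 46 to 67 estimated reads per library. The fibroblast markers rose beside it, and their part was not tested.

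Genes that move or chaperone copper, manganese and iron were mixed too. Among the 11 tested, 3 rose and 4 fell, where 29.6% of all tested genes rose and 27.4% fell, and the median was 0.04. The copper chaperone Atox1 fell from 92.4 ± 3.96 to 53.4 ± 6.09 CPM (-0.79, edgeR adjusted p = 2.308e-07) and Ccs, which delivers copper to superoxide dismutase, from 27.9 ± 1.23 to 18.99 ± 1.25 CPM (-0.55, edgeR adjusted p = 5.689e-06). The copper pump Atp7a rose from 41.2 ± 1.38 to 61.0 ± 3.78 CPM (0.56, edgeR adjusted p = 4.947e-07), and the Golgi calcium and manganese pump Atp2c1 from 76.4 ± 0.794 to 92.4 ± 4.32 CPM (0.27, edgeR adjusted p = 1.428e-04). With the length and GC trends removed Atp7a lay at -0.07 and Atp2c1 at -0.06.

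Of 7 other genes known to respond to metals or MTF1, 4 were tested. Among them 1 was called higher and 2 lower, and the median log2 fold change was -0.10. For comparison, calls were made for 57.0% of all tested genes, 29.6% higher and 27.4% lower. Whether this short list departs from that share was not tested. Selenoh fell from 14.5 ± 1.597 to 9.90 ± 1.07 CPM (-0.55, edgeR adjusted p = 3.101e-04), though not with the length trend removed (-0.22, adjusted p = 0.05882). Ndrg1, a hypoxia- and metal-responsive gene, fell from 173.6 ± 5.62 to 145.4 ± 5.86 CPM (-0.26, edgeR adjusted p = 1.486e-04), though not on the log2(TPM + 1) scale (-0.09, limma adjusted p = 0.1267). Csrp1 rose from 31.5 ± 1.18 to 35.2 ± 0.280 CPM (0.16, edgeR adjusted p = 0.02011), and its call was lost without wild-type replicate 1 or 3 or labelled replicate 2 or 3, at adjusted p = 0.07172 to 0.08031, and with DESeq2 (0.1226).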

How the data were processed

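Oligo(dT)-selected RNA of 6 libraries was sequenced, and groups and replicate numbers come from the sample titles. HISAT, Bowtie2 and RSEM are listed in the submitters' processing notes with the build GRCm39, and neither annotation nor strand setting is stated there. Read counts were deposited per library, per the file headers, and are treated here as estimated counts, since 58.9% to 69.2% of a library's values were not whole. The files also hold TPM and FPKM values by library, as deposited, and the authors' group averages were not used. The 10 genes, the other gene lists and the tests were chosen with earlier results of these data known.

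Estimated counts were rounded, then fitted with edgeR 4.0.16 under R 4.3.3: filterByExpr (13558 of 18159 genes kept), TMM scaling and the robust two-sided quasi-likelihood test over all genes, with Benjamini-Hochberg adjustment and calls at 0.05. Each SE was derived from the fold change and its F statistic. Outside the 10 genes, those named are up to 8 called ZIP and ZnT genes and the 3 most abundant, and up to 4 called genes of each further list, by smallest p. Marker lists are named by their counts and sums.

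Alternatives were RLE factors, library totals, DESeq2 1.42.0, no filter, 5 CPM in 3 libraries, the replicate number as a block, each library left out, limma 3.58.1 on log2(TPM + 1), and loess trends (span 0.5) on transcript length, or on length and then GC content, removed per library, with lengths for 93.1% and GC for 97.9% of tested genes. The ratios to epithelial and to enterocyte markers were chosen after seeing the data. GC content came from GENCODE transcripts of GRCm38, and promoter windows from RefSeq GRCm38.p6. Replicates differed by more than counting noise (chi-square per degree of freedom 1.58 to 7.15). The fits were tested on simulated data.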

Additional observations from a re-analysis of the deposited data

How the results depend on the processing

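Of the 10 genes 6 kept their sign under all 17 alternatives. The exceptions were Slc39a14, at -0.04 with the length trend removed, and Slc39a5 (0.24), Slc30a10 (0.09) and Mtf1 (0.41) as a ratio to the enterocyte markers. That ratio shifts every gene upward by about the same amount, since the summed markers fell. Labelled replicate 1 stood somewhat apart from the other labelled libraries, and leaving it out gave the lowest values of Mt1 (0.36) and Mt2 (1.03). Of all tested genes 4013 rose and 3712 fell, with 3430 to 4082 rises and 3150 to 4261 falls when a library was left out, 2254 rises with the length and GC trends removed and 1890 falls with limma on log2(TPM + 1). The numbers shared by the groups did not pair the libraries (correlations of deviations 0.041, -0.001 and 0.050 for numbers 1, 2 and 3), and with the replicate number as a block 3863 rose and 3578 fell and the zinc enzymes that rose went from 4 to 2.

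In the lists, leaving out a library gave 1 rise and 3 to 6 falls for the other ZIP and ZnT genes, 0 to 1 rises and 2 falls for the metal-responsive genes, 1 to 3 rises and 3 to 4 falls for the zinc enzymes, 2 to 3 rises and 3 to 4 falls for copper, manganese and iron transport, and 2 rises and 4 to 5 falls for the glucocorticoid-responsive genes. The library behind the 3 falls among ZIP and ZnT genes was wild-type replicate 3, and the 1 rise among the zinc enzymes came without labelled replicate 3. With limma on log2(TPM + 1) the same lists gave 3 rises and 1 fall for ZIP and ZnT genes and 2 rises and 1 fall for metal-responsive genes. Zinc enzymes gave 5 rises and 2 falls there, and copper, manganese and iron transport 6 rises and 2 falls. The glucocorticoid-responsive genes gave 3 rises and 3 falls. On that scale Slc39a1 and Slc39a11 both lay at 0.01. With the length trend removed, alone or with the GC trend, 0 ZIP and ZnT genes rose and 1 metal-responsive gene fell; with the length trend alone 1 glucocorticoid-responsive gene rose. With both removed Slc30a7 lay at -0.10, Atp7a at -0.07 and Atp2c1 at -0.06. The zinc enzymes that rose numbered 2 with DESeq2, with no filter, with a filter of 5 CPM and with both trends removed, and DESeq2 called 0 rises among the metal-responsive genes. In the labelled libraries 8 pairs of neighbours in the order of levels did not overlap in TPM and 9 in FPKM. Matches on the forward strand alone were present in 12.3% of promoter windows. Of the genes described, Mt1 held 1 such match, Mt2 and Slc30a10 held 2 each, and the other windows held none. The cause of these differences was not tested. Genes at a few reads per library, such as Mt3, Mt4, Slc30a3 and Slc39a12, are limited by depth.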

Other observations

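Metallothionein genes are also known to respond to glucocorticoids, and 7 genes of that response were looked at. Of these 2 rose and 4 fell, where 29.6% of all tested genes rose and 27.4% fell, with a median log2 fold change of -0.25. Per1, a clock gene that glucocorticoids induce, fell from 103.5 ± 1.86 to 63.2 ± 1.92 CPM (SD, n = 3 each; -0.71, edgeR, Benjamini-Hochberg adjusted p = 5.037e-09). The kinase gene Sgk1 fell from 419.5 ± 5.90 to 319.6 ± 9.70 CPM (-0.39, edgeR adjusted p = 4.339e-07) and Tsc22d3, which encodes GILZ, from 72.5 ± 1.75 to 61.0 ± 2.04 CPM (-0.25, edgeR adjusted p = 3.866e-04), though Tsc22d3 did not pass on the log2(TPM + 1) scale (-0.04, limma adjusted p = 0.4475). The receptor gene Nr3c1 rose from 113.1 ± 4.07 to 150.8 ± 6.25 CPM (0.42, edgeR adjusted p = 1.508e-06). These values stand beside higher Mt1 and Mt2 in the same libraries, and a link was not tested.

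The genes whose log2 CPM followed Slc39a4 most closely over the 6 libraries were Sdf2l1 (Pearson's r = 0.9996), Ppp2r5d (0.9994) and Pck1 (0.9993), among 11398 genes compared. The 6 libraries share the difference between the groups, and 1629 genes, or 14.3%, reached an r of at least 0.95. Pck1, which encodes a gluconeogenic enzyme, was at 1019, 1026 and 1049 CPM in wild-type and at 783.8, 774.9 and 790.7 CPM in the libraries labelled Git2-knockout.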
